A study of Homo sapiens with 3 samples.

Results

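The genes described here encode the cell-surface switch of blood coagulation, its receptors and related proteins. These are tissue factor (F3), its inhibitor TFPI, the related inhibitor TFPI2, thrombomodulin (THBD) and the endothelial protein C receptor (PROCR). The others are the protease-activated receptors PAR1 (F2R) and PAR2 (F2RL1), and the matrix protein thrombospondin 1 (THBS1). The genes were chosen by name for their roles, with earlier results of these data known. They are 8 of the 58381 genes in the count table. All 8 had at least 10 counts in a library, and 6 of them had at least 100. RNA-seq was performed on T24 cells, a human bladder carcinoma line, in 3 conditions with 1 library each. The Ctrl library carries the treatment label Empty and the title Control. The protocol names a pLKO.1 control vector, whereas the study's results call the comparator parental cells. The RT library came from control cells exposed to ionising radiation, and the RT + shHDAC6 library from irradiated cells that carry a lentiviral shRNA against HDAC6. The labels give 10 Gy from a 137Cs source and puromycin selection after infection. They give no time between irradiation and harvest, and do not say whether the infected cells were 1 clone or a pool. Knockdown cells without irradiation were not analysed here, so an effect of the shRNA alone and an effect after irradiation cannot be told apart.

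Tissue factor is a transmembrane receptor for factor VII and starts the extrinsic pathway of coagulation. TFPI shuts down the complex of tissue factor, factor VIIa and factor Xa, and TFPI2 is a related Kunitz-type inhibitor of the plasmin and trypsin kind of protease. Thrombin formed downstream cuts PAR1, a G protein-coupled receptor that carries its own tethered ligand, and PAR2 is cut by trypsin-like proteases and by the tissue factor complex. Thrombin bound to thrombomodulin activates protein C, which PROCR presents on the cell surface. Thrombospondin 1 is a secreted matrix glycoprotein of platelets and many adherent cells, and an inhibitor of angiogenesis. In carcinoma cells, tissue factor and PAR1 are known for links to invasion and angiogenesis.

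Transcription of F3 is known to respond to AP-1, SP1 and EGR1 through sites close to its start, and the sequences before the starts of the 4 genes that were more than 1.5-fold higher in RT than in Ctrl are therefore shown. Each is the 250 bases before the start annotated by RefSeq on GRCh38.p14, written 5′ to 3′ on the strand of the gene. F3 lies on the minus strand at chr1:94541760-94542009, TFPI2 on the minus strand at chr7:93890754-93891003, PROCR on the plus strand at chr20:35171822-35172071 and THBS1 on the plus strand at chr15:39580829-39581078. Capitals mark letters that match TGANTCA (AP-1), GGGCGG (SP1) or GCGNGGGCG (EGR1) on either strand.
F3: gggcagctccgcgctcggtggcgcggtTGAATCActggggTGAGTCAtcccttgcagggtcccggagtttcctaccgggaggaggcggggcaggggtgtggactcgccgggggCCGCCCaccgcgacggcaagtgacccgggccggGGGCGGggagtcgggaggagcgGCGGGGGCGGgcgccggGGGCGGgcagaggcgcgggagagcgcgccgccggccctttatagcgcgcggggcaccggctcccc
TFPI2: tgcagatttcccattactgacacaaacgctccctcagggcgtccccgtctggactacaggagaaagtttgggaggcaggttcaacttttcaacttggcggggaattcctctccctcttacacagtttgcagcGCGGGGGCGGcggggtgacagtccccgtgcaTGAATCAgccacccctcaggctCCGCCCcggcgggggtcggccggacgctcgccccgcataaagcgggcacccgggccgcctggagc
PROCR: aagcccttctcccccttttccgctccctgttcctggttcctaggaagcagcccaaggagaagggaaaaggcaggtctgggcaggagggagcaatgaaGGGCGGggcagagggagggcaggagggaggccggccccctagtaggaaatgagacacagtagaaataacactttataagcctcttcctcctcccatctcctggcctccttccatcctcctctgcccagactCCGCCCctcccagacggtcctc
THBS1: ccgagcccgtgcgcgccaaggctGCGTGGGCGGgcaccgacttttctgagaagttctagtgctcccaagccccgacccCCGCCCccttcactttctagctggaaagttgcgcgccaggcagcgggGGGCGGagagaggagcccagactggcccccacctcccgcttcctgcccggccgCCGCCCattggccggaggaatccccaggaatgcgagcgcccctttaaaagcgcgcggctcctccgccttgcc

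Promoter sequence was matched for 6 of the 8 genes. The TFPI window, chr2:187554436-187554685 on the minus strand, lies inside the gene as annotated for the counts of exon bases. That gene reaches position 187565760 and has 12 annotated transcripts, so the TFPI window describes 1 start only. The F2RL1 window, chr5:76818780-76819029 on the plus strand, also reaches into its gene, which is annotated from position 76818933. F3 held 2 AP-1 matches, from 223 to 217 and from 210 to 204 bases before its start. TFPI2 held 1, from 87 to 81 bases before its start, and TFPI, PROCR, F2RL1 and THBS1 held 0. Of all 35116 promoters, 6.57% held an AP-1 match in the same window. The SP1 letters are common, being found in 42.6% of promoters; F3 and THBS1 held 4 matches each, TFPI2, PROCR and F2RL1 held 2 each, and TFPI held 0. The EGR1 letters, found in 8.41% of promoters, were present once each in F3, TFPI2 and THBS1, and each of these overlapped 1 SP1 match. A match describes letters in this window and does not show that a factor binds there. The motifs were chosen because F3 is known to respond to these factors, so its own matches were given in advance. A link between matches and levels was not tested.

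**Figure D1:**
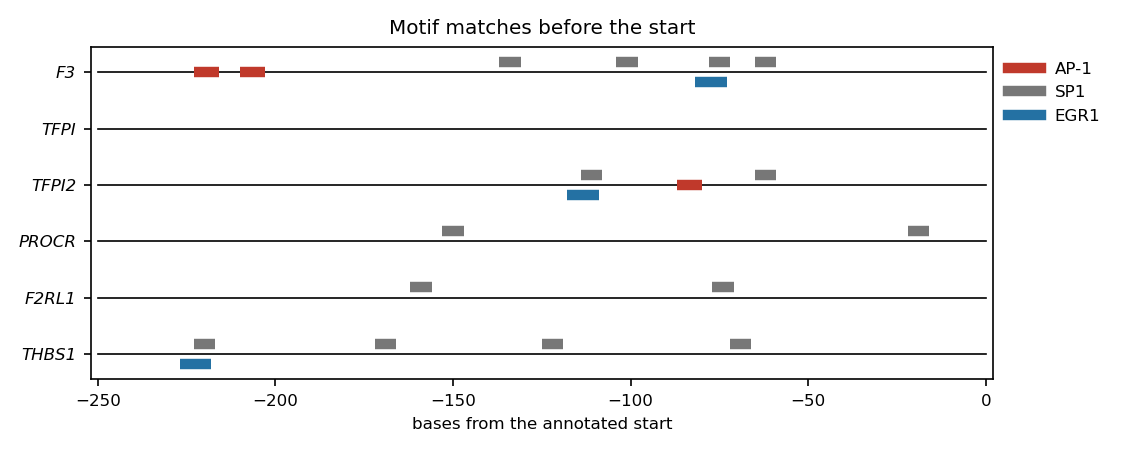
Motif matches in the 250 bases before the annotated start of the 6 genes with a promoter sequence (x axis, bases from the start; each line is 1 gene; red marks AP-1, grey SP1 and blue EGR1 matches on either strand). F3 holds 2 AP-1 matches and TFPI2 holds 1, whereas the other 4 genes hold 0.

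In total 41811165 reads were counted for Ctrl, 35959265 for RT and 35424086 for RT + shHDAC6. Mitochondrial genes took 3.75%, 6.09% and 5.51% of these counts in turn, a higher share in both irradiated libraries than in Ctrl. The 8 genes took 0.0374%, 0.0570% and 0.0395% of the counts. Levels are given in CPM, the count scaled to a common library size, after TMM scaling, which limits the weight of a few dominant genes, and log2 ratios are given with 95% intervals from exact binomial limits. The intervals reflect counting error alone, since they use nothing but the read counts. The reads carry no molecular identifiers, so copies of the same molecule cannot be told from separate molecules. With 1 library per condition there is no replicate check and no p-value, and the counting interval excluded 0 for 57.9% of all tested genes in RT versus Ctrl, 44.1% in RT + shHDAC6 versus RT and 58.4% in RT + shHDAC6 versus Ctrl. HDAC6, the targeted gene, had 3098 counts in Ctrl, 2383 after RT and 2170 with RT + shHDAC6, so that the RT + shHDAC6 library held 87.2% of the RT level (log2 ratio -0.20, interval -0.28 to -0.11). This was short of 1.5-fold, and 24.5% of the genes with 100 counts or more had a lower ratio, so the library is called RT + shHDAC6 from its label rather than from its HDAC6 RNA. The paper itself reports less HDAC6 mRNA by qPCR and less HDAC6 protein by Western blot in its shHDAC6 T24 cells. Protein was not measured in these libraries. The 5 epithelial markers were present in every library, and EPCAM, the lowest, had 205, 116 and 172 counts. They did not move together: KRT7 had 3533, 3854 and 597 counts and was called lower in RT + shHDAC6 versus RT (log2 ratio -2.75, below that of F3), where KRT8, KRT18, KRT19 and EPCAM had log2 ratios from 0.05 to 0.51. In RT versus Ctrl, KRT18 was called higher (0.62) and KRT19 lower (-0.67). Of the 6 markers of differentiated urothelium, UPK1B, UPK2, UPK3A and KRT20 had 3 counts or fewer in every library, and their summed level, nearly all of it GATA3, was 51.6, 42.6 and 20.5 CPM. The endothelial markers, of interest because endothelium is a main site of TFPI, THBD and PROCR, summed to 67.5 CPM in Ctrl, 107 after RT and 113 with RT + shHDAC6. Most of this was ESAM, which had 2284, 3214 and 3430 counts; PECAM1, CDH5, KDR and TIE1 had from 45 to 489 and none was at 0. The 5 fibroblast markers summed to 312, 242 and 203 CPM, and the platelet and monocyte markers to 3.53, 2.65 and 2.51 CPM, with PF4 and GP9 at 0. The part of these markers and of the mitochondrial share in the results was not tested.

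A gene was called when its level differed at least 1.5-fold (0.58 on the log2 scale) and it had at least 10 counts in either library. In RT versus Ctrl, 4 of the 8 genes were called higher (F3, TFPI2, PROCR and THBS1) and 2 were called lower (F2R and F2RL1). Of all 20267 tested genes, 14.5% were called higher and 20.5% lower. Among the 12670 genes with at least 100 counts, 1989 were called higher and 1279 lower. Lower calls were thus more frequent among genes with fewer counts, such as F2RL1. The median log2 ratio of the 8 was 0.59, with a range from -1.18 to 1.61, and that of all tested genes was -0.062. In RT + shHDAC6 versus RT, 0 of the 8 were called higher and 4 lower (F3, PROCR, F2R and F2RL1), against 10.1% and 9.93% of 19013 tested genes. The median log2 ratio was -0.63 among the 8 and -0.0032 among all tested genes. All 8 log2 ratios were below 0 in this comparison under each of the 4 scalings that were run, as were 39.6% to 51.7% of all tested genes. For THBD and F2RL1 the counting interval included 0. These 2 comparisons share the RT library, so a deviation of that library alone would move a gene in opposite directions in them. In RT + shHDAC6 versus Ctrl, 1 gene was called higher (TFPI2) and 3 lower (F3, F2R and F2RL1), against 13.9% and 20.5% of 20374 tested genes. The median log2 ratio of the 8 was -0.24 and that of all tested genes was -0.056. Scaling by library totals only would shift all log2 ratios by -0.218, 0.0837 and -0.134 in the 3 comparisons in turn; higher calls then made up 20.9% rather than 41.4% of all calls in RT versus Ctrl, and 27.7% rather than 40.4% in RT + shHDAC6 versus Ctrl.

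**Figure D2:**
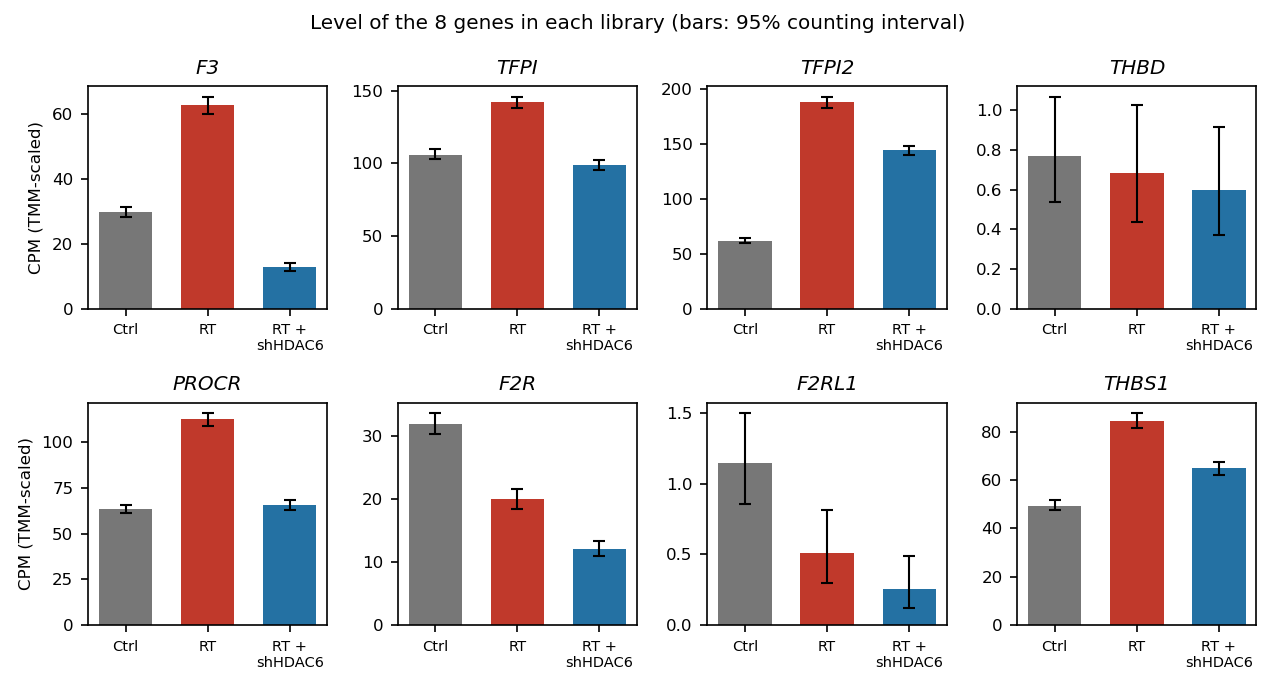
Level of each gene in the 3 libraries (y axis, TMM-scaled CPM from 0; grey Ctrl, red RT, blue RT + shHDAC6; error bars, 95% counting intervals of 1 library each). F3, TFPI, TFPI2, PROCR and THBS1 were highest in RT, F2R and F2RL1 were highest in Ctrl, and the intervals of THBD overlap in all 3 libraries.

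F3, the initiator, showed the widest range among the 6 genes with 100 counts or more. It had 1353 counts in Ctrl, 2106 after RT and 450 with RT + shHDAC6, or 29.8, 62.8 and 12.9 CPM. RT was thus the highest library and RT + shHDAC6 the lowest, and the counting intervals of the 3 levels did not overlap. The level in RT was 2.10-fold that in Ctrl (log2 ratio 1.07, interval 0.97 to 1.17), and 3.37% of the 12670 genes with 100 counts or more had a higher ratio. In RT + shHDAC6, F3 was at 20.5% of its RT level, which is 4.89-fold lower (log2 ratio -2.29, interval -2.44 to -2.14). Only 26 of the 12066 genes with at least 100 counts, and 5 of the 6995 with at least 1000, had a lower ratio in that comparison. It also lay under Ctrl, at 43.1% of the Ctrl level (log2 ratio -1.22, interval -1.37 to -1.06). RNA levels in bulk do not tell a lower level in every cell from a smaller share of cells that express the gene. F3 (ENSG00000117525) spans positions 94529173 to 94541759 of chromosome 1 on GRCh38 and no annotated exon of another gene overlaps its exons; its membrane-bound and soluble splice forms are summed in the count.

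The main tissue factor inhibitor, TFPI, changed less than 1.5-fold in all 3 comparisons. It had 4828 counts in Ctrl, 4759 after RT and 3457 with RT + shHDAC6, or 106, 142 and 98.7 CPM. RT was the highest, and the interval of Ctrl began at 103 CPM, just above the upper limit of RT + shHDAC6 at 102 CPM. The log2 ratio was 0.41 (interval 0.36 to 0.47) in RT versus Ctrl and -0.52 (interval -0.59 to -0.46) in RT + shHDAC6 versus RT. Among genes with 100 counts or more, 23.8% had a higher ratio in the former and 6.70% a lower ratio in the latter.

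TFPI2 was the gene of the 8 most raised in RT, and the one that stayed most above Ctrl in RT + shHDAC6. It had 2802 counts in Ctrl, 6309 after RT and 5042 with RT + shHDAC6, or 61.8, 188 and 144 CPM. Both irradiated libraries lay above Ctrl, with intervals that did not overlap. RT was 3.04-fold above Ctrl (log2 ratio 1.61, interval 1.54 to 1.67), a ratio exceeded by 58 of 12670 genes, and RT + shHDAC6 was 2.33-fold above Ctrl (log2 ratio 1.22, interval 1.15 to 1.29). Between the irradiated libraries the log2 ratio was -0.39 (interval -0.44 to -0.33), short of 1.5-fold.

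Because they divide counts from the same library, ratios between these genes do not depend on the scaling. There were 0.280 F3 counts per TFPI count in Ctrl (interval 0.264 to 0.298), 0.443 in RT (interval 0.420 to 0.466) and 0.130 in RT + shHDAC6 (interval 0.118 to 0.144). The F3 share was therefore highest in RT and lowest in RT + shHDAC6, with intervals that did not overlap. Against TFPI2 the order differed, at 0.483 in Ctrl, 0.334 after RT and 0.0893 with RT + shHDAC6, since TFPI2 exceeded Ctrl by more than F3 did in RT. These are ratios of RNA counts and not of protein or of inhibitor activity.

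THBD, the thrombin receptor that turns thrombin towards protein C activation, was scarce. It had 35 counts in Ctrl, 23 after RT and 21 with RT + shHDAC6, or 0.772, 0.686 and 0.600 CPM. The 3 counting intervals overlapped, and the log2 ratio was -0.17 in RT versus Ctrl (interval -1.0 to 0.63) and -0.19 in RT + shHDAC6 versus RT (interval -1.12 to 0.72). At this depth no difference was detectable, and the interval reached down to a 2-fold lower level in RT.

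PROCR, which holds protein C at the membrane, was by contrast abundant. It had 2881 counts in Ctrl, 3783 after RT and 2306 with RT + shHDAC6, or 63.5, 113 and 65.9 CPM. RT stood above the other libraries, whose intervals overlapped. The RT level was 1.78-fold that of Ctrl (log2 ratio 0.83, interval 0.76 to 0.90) and the RT + shHDAC6 level was 58.4% of that in RT (log2 ratio -0.78, interval -0.85 to -0.70). In the latter comparison 3.24% of the genes at or above 100 counts had a lower ratio. Against Ctrl, RT + shHDAC6 had a log2 ratio of 0.052 (interval -0.028 to 0.13), which was -0.082 with library totals only. Of its exon bases, 12.8% overlap a non-coding gene on the other strand that had 6 counts or fewer in every library.

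The protease-activated receptor genes F2R and F2RL1 were lower in RT than in Ctrl, whereas F3, TFPI2 and PROCR were higher. F2RL1 had fewer than 100 counts, a range where lower calls were more frequent among all genes. F2R, the thrombin receptor PAR1, had 1451 counts in Ctrl, 672 after RT and 423 with RT + shHDAC6, or 32.0, 20.0 and 12.1 CPM. The counting intervals were all apart. RT held 62.6% of the Ctrl level (log2 ratio -0.68, interval -0.81 to -0.54), RT + shHDAC6 held 60.3% of the RT level (log2 ratio -0.73, interval -0.91 to -0.55) and 37.8% of the Ctrl level (log2 ratio -1.41, interval -1.56 to -1.25). Among genes with 100 counts or more, 7.20% had a lower ratio in RT versus Ctrl and 3.62% in RT + shHDAC6 versus RT. There were 1.07 F2R counts per F3 count in Ctrl, 0.319 after RT and 0.940 with RT + shHDAC6.

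F2RL1, the receptor PAR2, had only 52 counts in Ctrl, 17 after RT and 9 with RT + shHDAC6, or 1.15, 0.507 and 0.257 CPM. Ctrl lay above both irradiated libraries, whose intervals overlapped. The log2 ratio was -1.18 (interval -2.06 to -0.36) in RT versus Ctrl and -2.16 (interval -3.36 to -1.12) in RT + shHDAC6 versus Ctrl. In RT + shHDAC6 versus RT it was -0.98, past 1.5-fold, but the interval of -2.33 to 0.27 included 0. A non-coding gene on the other strand overlaps 10.4% of its exon bases. The other receptors of the family were scarcer than F2R as well. F2RL2 (PAR3) had 145, 72 and 45 counts from Ctrl to RT to RT + shHDAC6, with a log2 ratio of -1.31 in RT + shHDAC6 versus Ctrl. F2RL3 (PAR4) had 4 counts or fewer in every library.

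THBS1, the matrix ligand, had 2247 counts in Ctrl, 2837 after RT and 2273 with RT + shHDAC6, or 49.5, 84.6 and 64.9 CPM. RT was the highest and Ctrl the lowest, with intervals that did not overlap. RT was 1.71-fold above Ctrl (log2 ratio 0.77, interval 0.69 to 0.85), a call lost with library totals only, where the log2 ratio was 0.55. RT + shHDAC6 remained above Ctrl by a log2 ratio of 0.39 (interval 0.30 to 0.47). THBS1 is among the genes that the study shows in a heat map of these libraries, chosen for a rise after RT that the shRNA library lacked, so its directions are not independent evidence. An antisense non-coding RNA and FSIP1, both on the other strand, overlap 4.49% and 4.89% of its exon bases.

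**Figure D3:**
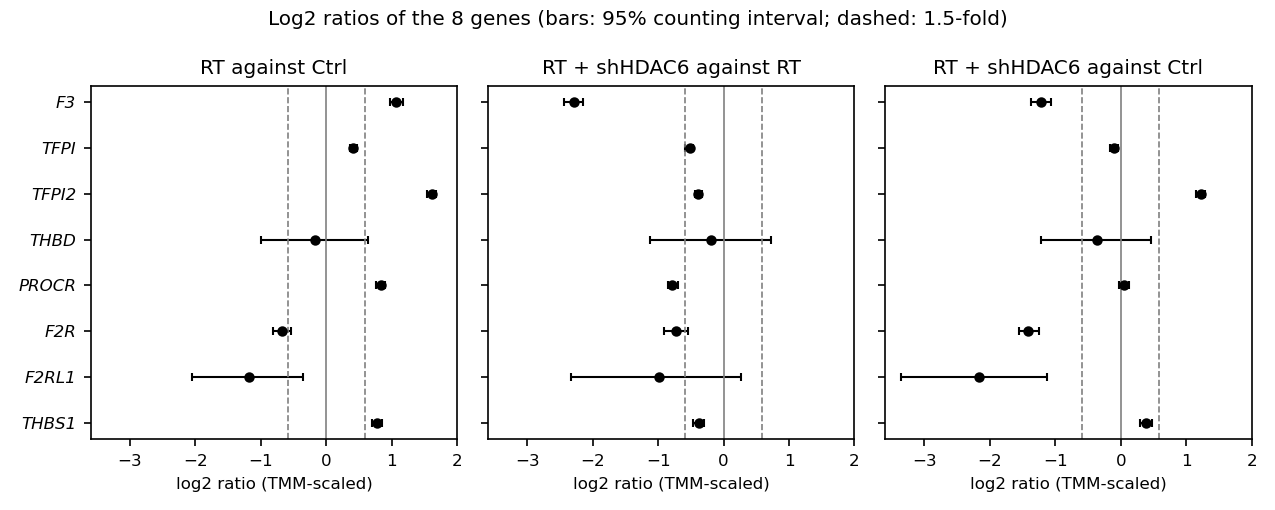
Log2 ratios of the 8 genes in the 3 comparisons (x axis, TMM-scaled log2 ratio; points, 1 library against 1 library; bars, 95% counting intervals; dashed lines, 1.5-fold). The median of the 8 was 0.59 in RT versus Ctrl, -0.63 in RT + shHDAC6 versus RT and -0.24 in RT + shHDAC6 versus Ctrl, and the intervals of THBD and F2RL1 are the widest.

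To compare the genes with each other, levels were divided by exon length and given as RPKM, the CPM per kilobase. In Ctrl, PROCR was the highest at 37.4 RPKM, followed by TFPI2 at 25.3, F3 at 10.3, TFPI at 9.09, F2R at 8.06, THBS1 at 5.41, F2RL1 at 0.391 and THBD at 0.191. No neighbours in this order had overlapping counting intervals. TFPI2 led in RT with 77.0 RPKM and in RT + shHDAC6 with 58.9 RPKM, ahead of PROCR with 66.5 and 38.8 RPKM. F3 was the third in Ctrl and in RT (21.8 RPKM) and the fifth in RT + shHDAC6 (4.45 RPKM). F2RL1 and THBD were the lowest pair in all 3 libraries, and in both irradiated libraries their intervals overlapped. Among protein-coding genes with at least 10 counts, 97.7% had a lower RPKM than TFPI2 in RT, and 15.4% had a lower one than THBD. The place of TFPI depends on the length used: with its canonical transcript in place of all annotated exon bases it had 27.6 RPKM in Ctrl and 36.8 RPKM in RT, above F3 with 13 and 27.3 RPKM.

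By the pair of log2 ratios against Ctrl, and over 10529 protein-coding genes with at least 100 counts in every library, the genes nearest to F3 were ADAMTSL1 (696, 1058 and 254 counts, given as Ctrl, RT, RT + shHDAC6) and UGT8 (1031, 1466 and 314 counts). Their distances from F3 were 0.14 and 0.18 on the log2 scale. The nearest genes to F2R were NYAP1 and KIF5A, at 0.035 and 0.058, and those to TFPI2 were IL27RA and SLC5A6, at 0.050 and 0.058. CLGN and POLM lay nearest to PROCR (0.043 and 0.057), and ATP6V0E1 and IQCC to THBS1 (0.013 and 0.017). The others were SLC6A9 and EPHB4 for TFPI, KAT6B and TCF7L2 for THBD, and CCDC92 and PALM3 for F2RL1. The likeness is taken over 3 libraries only. THBD and F2RL1 had 52 counts or fewer in every library and wide intervals, so their nearest genes are poorly determined.

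Other genes of the pathway were examined in 6 lists of 77 genes. In RT versus Ctrl, 8 of 55 tested list genes (14.5%) were called higher and 15 (27.3%) lower, against 14.5% and 20.5% of all tested genes. In RT + shHDAC6 versus RT these were 3 of 53 (5.66%) higher and 6 (11.3%) lower, against 10.1% and 9.93% of all tested genes, and in RT + shHDAC6 versus Ctrl 3 of 56 (5.36%) higher and 8 (14.3%) lower, against 13.9% and 20.5%. These shares over all genes are the background of the counts given for each list. In RT versus Ctrl the share called lower was larger among genes with fewer counts. Most soluble clotting factors are made mainly by the liver. The 16 genes of the coagulation cascade were scarce here, and 7 had at least 10 counts in Ctrl or RT. The list summed to 20.9 CPM in Ctrl, 16.7 after RT and 18.7 with RT + shHDAC6. VWF and F8 had the highest levels of the list in Ctrl, at 9.20 and 4.54 CPM. Of those 7, 0 were called higher and 3 lower in RT, of which F8, the cofactor of the intrinsic pathway, had 206 counts in Ctrl and 78 in RT (log2 ratio -0.97). In RT + shHDAC6 versus RT, 1 of 6 was called higher (F10, with 9 and 18 counts) and 0 lower. F7, the ligand of tissue factor, had 10, 4 and 8 counts in the 3 libraries, Ctrl first.

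Among 11 anticoagulant and thrombin inhibitor genes, 5 were tested, and 1 was called higher and 2 lower in RT. SERPINE2, a cell-bound thrombin inhibitor, had 1490 counts in Ctrl, 2135 after RT and 1220 with RT + shHDAC6, with log2 ratios of 0.95 in RT versus Ctrl and -0.87 in RT + shHDAC6 versus RT. A2M, a broad protease inhibitor, had a log2 ratio of -0.69 in RT versus Ctrl. PROS1, the protein S cofactor of activated protein C, was called lower with the shRNA than with RT alone, at a log2 ratio of -0.66. It stands in the same heat map as THBS1, so it is not independent evidence either. PROC itself had 1 count in each library.

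All 9 genes of vitamin K-dependent carboxylation and factor transport were tested, and 4 were called higher and 0 lower in RT. These were GGCX, the carboxylase of clotting factors (log2 ratio 0.63), VKORC1L1, a vitamin K reductase (0.74), LMAN1, the cargo receptor of factors V and VIII (0.72), and P4HB, a protein disulfide isomerase (0.85). The median of the list was 0.58 in RT versus Ctrl and -0.31 in RT + shHDAC6 versus RT, where 0 were called in either direction.

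Of 17 tested genes of protease-activated receptor signalling, 1 was called higher and 2 lower in RT. PLCB4 and PLCB1, phospholipases that act behind Gq, went opposite ways: PLCB4 had 1213 counts in Ctrl, 2378 after RT and 1619 with RT + shHDAC6, and PLCB1 had 1031, 371 and 907. In RT versus Ctrl their log2 ratios were 1.41 and -1.04, and in RT + shHDAC6 versus RT they were -0.62 and 1.23. GRK5, a receptor kinase, had a log2 ratio of -0.73 in RT versus Ctrl and -1.31 in RT + shHDAC6 versus Ctrl. The G protein genes GNAQ, GNA11, GNA12 and GNA13 were not called in any comparison, with log2 ratios from -0.56 to 0.35, and neither were RHOA, ROCK1 and ROCK2. With library totals only, GNA12, GNA13, RHOA and ROCK1 were called lower in RT versus Ctrl, at -0.78, -0.63, -0.64 and -0.78. The median of the list was -0.38 in RT versus Ctrl and 0.12 in RT + shHDAC6 versus RT.

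Proteases that can cut these receptors were scarce, and the 12 genes summed to 8.80, 5.31 and 6.88 CPM. Of 7 tested, 0 were called higher and 5 lower in RT, among them ST14 (matriptase), with 190 and 83 counts and a log2 ratio of -0.76. In RT + shHDAC6 versus RT, 1 of 6 was called higher and 1 lower, both with fewer than 30 counts.

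In the list of 10 thrombospondin family and thrombospondin receptor genes, all tested, 2 were called higher and 3 lower in RT. The relatives of THBS1 differed from it, with log2 ratios in RT versus Ctrl of -0.55 for THBS2, -0.67 for THBS3, -0.39 for THBS4 and -0.61 for COMP. CD36, a scavenger receptor for thrombospondin 1, was called lower (log2 ratio -0.65). SCARB1, a related scavenger receptor, was called higher, with 6187 counts in Ctrl, 11287 after RT and 7787 with RT + shHDAC6, log2 ratios of 1.30 in RT versus Ctrl and -0.60 in RT + shHDAC6 versus RT. STIM1, a calcium sensor of the endoplasmic reticulum, was also called higher (0.65). CD47, the other main receptor, had a log2 ratio of 0.48. Against Ctrl, genes of the lists called lower in RT + shHDAC6 included LRP1, an endocytic receptor, at -0.61 and THBS3 at -0.87. With library totals only, GGCX, VKORC1L1, LMAN1 and STIM1 were short of 1.5-fold in RT versus Ctrl, where the lists held 4 higher and 28 lower calls, and PROS1, PLCB4 and SCARB1 were short of it in RT + shHDAC6 versus RT.

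**Figure D4:**
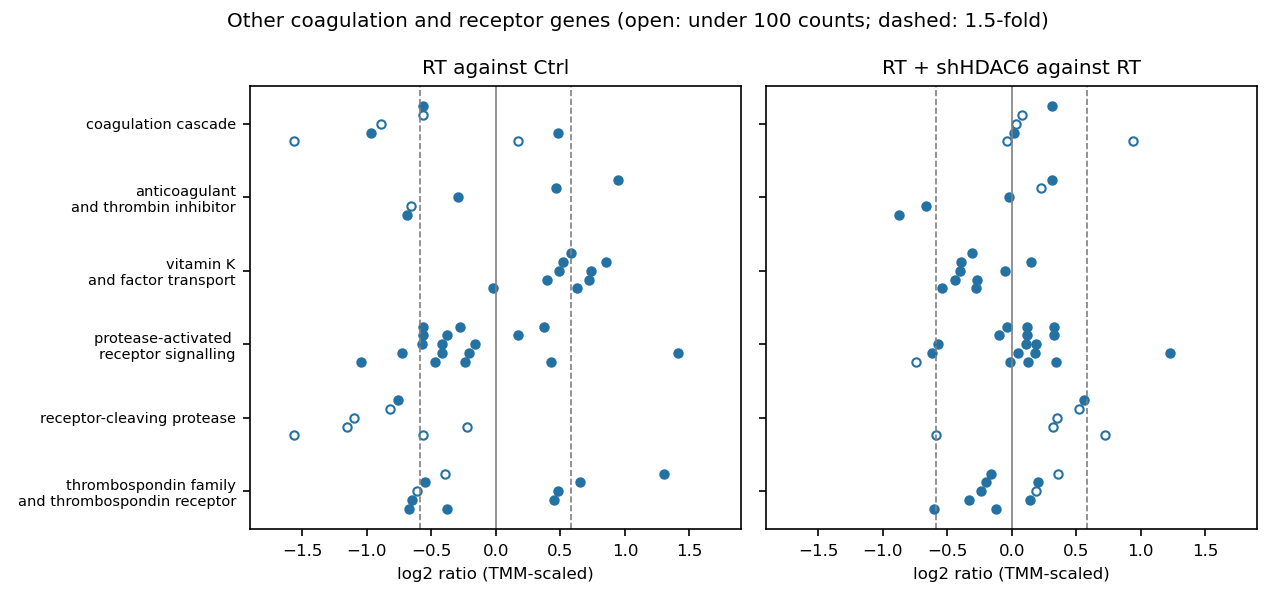
Log2 ratios of the tested genes of the 6 lists (x axis, TMM-scaled log2 ratio; 1 point per gene, open where both libraries had fewer than 100 counts; vertical spread within a list only separates the points; dashed lines, 1.5-fold). The vitamin K and factor transport genes lie mostly above 0 in the left panel (median 0.58) and mostly below 0 in the right (median -0.31), and the receptor-cleaving proteases lie below 0 in the left panel (median -0.82).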

How the data were processed

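RNA-seq was performed on T24 cells in 3 conditions with 1 library each. The authors trimmed adaptors with cutadapt, aligned to GRCh38 by STAR, and ran featureCounts on GENCODE release 28; the deposited values are raw whole-number read counts per gene. The STAR version is 2.6.1a in the submitters' processing notes and another in the methods. The strand setting of the counting and the treatment of multi-mapping reads are not given in the sources used here. Whether reads of overlapping genes were told apart is therefore not known. The methods name a strand-specific library kit. The kits named in the methods and the labels differ.

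Of 58381 identifiers, 57754 matched GENCODE release 44, which gave symbols, positions and exon lengths. TMM factors (edgeR 4.0.16, R 4.3.3) were 1.08, 0.933 and 0.988 for Ctrl, RT and RT + shHDAC6. Log2 ratios used a count of 0.5 in place of 0. Single libraries allow no edgeR quasi-likelihood or DESeq2 test. The paper called genes with NOISeq, which rests on simulated noise; a fixed 1.5-fold rule was used instead. Intervals at 95% came from scipy 1.17.1 (Python 3.11.15). Scripts were tested on simulated data. The precision follows from the depth: 3 counts, the limit that a count of 0 allows, correspond to 0.0662, 0.0894 and 0.0857 CPM.

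The genes and lists were chosen with earlier results of these data known. Named genes are the 8 members, HDAC6, list genes past 1.5-fold with at least 100 counts, and for each member the 2 nearest protein-coding genes; other list genes were named after their values were seen. Promoter sequences came from RefSeq. Alternatives covered scaling, the filter on low counts, the fold, zeros and, added after the data were seen, the gene length.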

Additional observations from a re-analysis of the deposited data

How the results depend on the processing

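No paired analysis was possible because each condition has 1 library. Counts are given as higher and lower calls, for the 8 genes, the 6 lists and all genes. A 2-fold rule called 2 and 1 of the 8 in RT versus Ctrl and 0 and 1 in RT + shHDAC6 versus RT. It called 2 and 5 list genes and 975 and 1858 of all genes in RT versus Ctrl, 1 and 0 and 828 and 909 in RT + shHDAC6 versus RT, and 1 and 3 and 1001 and 2134 in RT + shHDAC6 versus Ctrl. A minimum of 100 counts, which leaves fewer genes tested, left 1 lower call among the 8 in RT versus Ctrl, since F2RL1 drops out. With it the lists held 7 lower calls and all genes 1279 in RT versus Ctrl, 1 higher list call and 362 and 638 of all genes in RT + shHDAC6 versus RT, and 5 lower list calls and 1714 and 1490 of all genes in RT + shHDAC6 versus Ctrl. With no filter, which adds genes of few counts, the lists held 13 higher calls and all genes 6334 and 7799 in RT versus Ctrl; in RT + shHDAC6 versus RT these were 8 and 13, and 6957 and 6646; in RT + shHDAC6 versus Ctrl they were 6 and 18, and 6485 and 10609. With library totals only, the lists held 4 and 28 and all genes 1682 and 6352 calls in RT versus Ctrl, and the lists 5 and 2 in RT + shHDAC6 versus RT; the shift of all ratios gives this. Of the log2 ratios of the 8 genes, those of PROCR in RT + shHDAC6 versus Ctrl (-0.082 in place of 0.052) changed sign with library totals, neither value being past 1.5-fold, and THBS1 in RT versus Ctrl lost its call. Median-of-ratios and upper quartile scaling and zeros set to 1 left the counts of called members unchanged in all 3 comparisons. With canonical transcript lengths, TFPI and F3 exchanged ranks in Ctrl and RT. Depth limits THBD and F2RL1, with 52 counts or fewer in every library.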
